A study of Mus musculus with 8 samples.

Results

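The kallikreins and other serine proteases described here were 63 genes, chosen by name from the annotation of the array. They were the genes whose names start with Klk, Prss or Tmprss, with Hpn, St14, Corin, Htra1, Htra3, Dpp4 and Fap. They made up 63 of 27962 gene names, were measured by 79 of the 41174 noncontrol probes, and 13 of the genes had more than 1 probe. The rule uses names and no measured value, but it was set with earlier results of these data known.

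Oviduct RNA was compared between 4 control mice and 4 Gen-treated mice. All were female CD-1 mice that had been superovulated and bred at an age of 6–8 weeks. Oviducts came from plug-positive mice on GD2, at 48 hr from the ovulatory hCG dose, and RNA was isolated once the embryos were out of the organ. Controls had been injected subcutaneously with corn oil on PND1–PND5, and Gen-treated mice with Gen (genistein, a soy phytoestrogen with estrogenic activity) in corn oil at 50 mg/kg/day on the same days. Each of the 8 arrays was a separate biological replicate, hybridized in 1 color on Agilent whole mouse genome slides, with the 4 control arrays on 1 slide and the 4 Gen arrays on the other. Treatment therefore cannot be told apart from slide.

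Serine proteases cut proteins with a serine in the active site, and most are made as inactive precursors that another protease must cleave. Tissue kallikreins are secreted by glandular epithelia, and in the mouse a large block of near copies of Klk1 lies in 1 cluster on chromosome 7. Membrane-anchored proteases such as matriptase and hepsin sit on the epithelial surface, where they process growth factors, sodium channels and receptors. In the reproductive tract, secreted proteases act at ovulation, in the oviduct fluid and at implantation.

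Of the 63 genes, 35 were well above background on all 8 arrays by the scanner software, 19 on some arrays and 9 on none. The test covered 48 genes whose brightest probe was well above background on every array of at least 1 group. In Gen-treated mice 4 of the 48 passed an adjusted p of 0.05 by limma, against 1.1% of all 28963 probes tested. Tmprss5 and Prss16 rose, and Klk1b26 and Klk11 fell. At an unadjusted p of 0.01, the threshold of the study, 5 of the 48 were higher (3.99% of all probes) and 5 were lower (3.39%). The median log2 difference of the 48 genes was 0.03, and that of all probes tested was 0.02.

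A gene could be tested through the Gen group alone, which favors higher values there. Of the 48 genes, 5 were seen on no control array and 8 on 1 to 3 control arrays. All of these passed the filter only through the Gen group. Of the 5 genes higher at an unadjusted p of 0.01 by limma, 2 were of the first kind and 1 of the second. More probes were well above background on each Gen array (29537 to 31488) than on any control array (25366 to 28943). Among the 35 genes seen on all 8 arrays, the adjusted calls were Klk1b26 and Klk11, which was 2 of 35 against 0.999% of all such probes. The adjusted p of the 4 calls lay between 0.0277 and 0.0474 by limma. Leaving out 1 mouse at a time left 0 to 3 of them, and none was left without control 2, control 3, Gen 1, Gen 3 or Gen 4, although 6 to 11 genes then still passed an unadjusted p of 0.01. The p-values measure the spread between mice within each group.

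**Figure D1:**
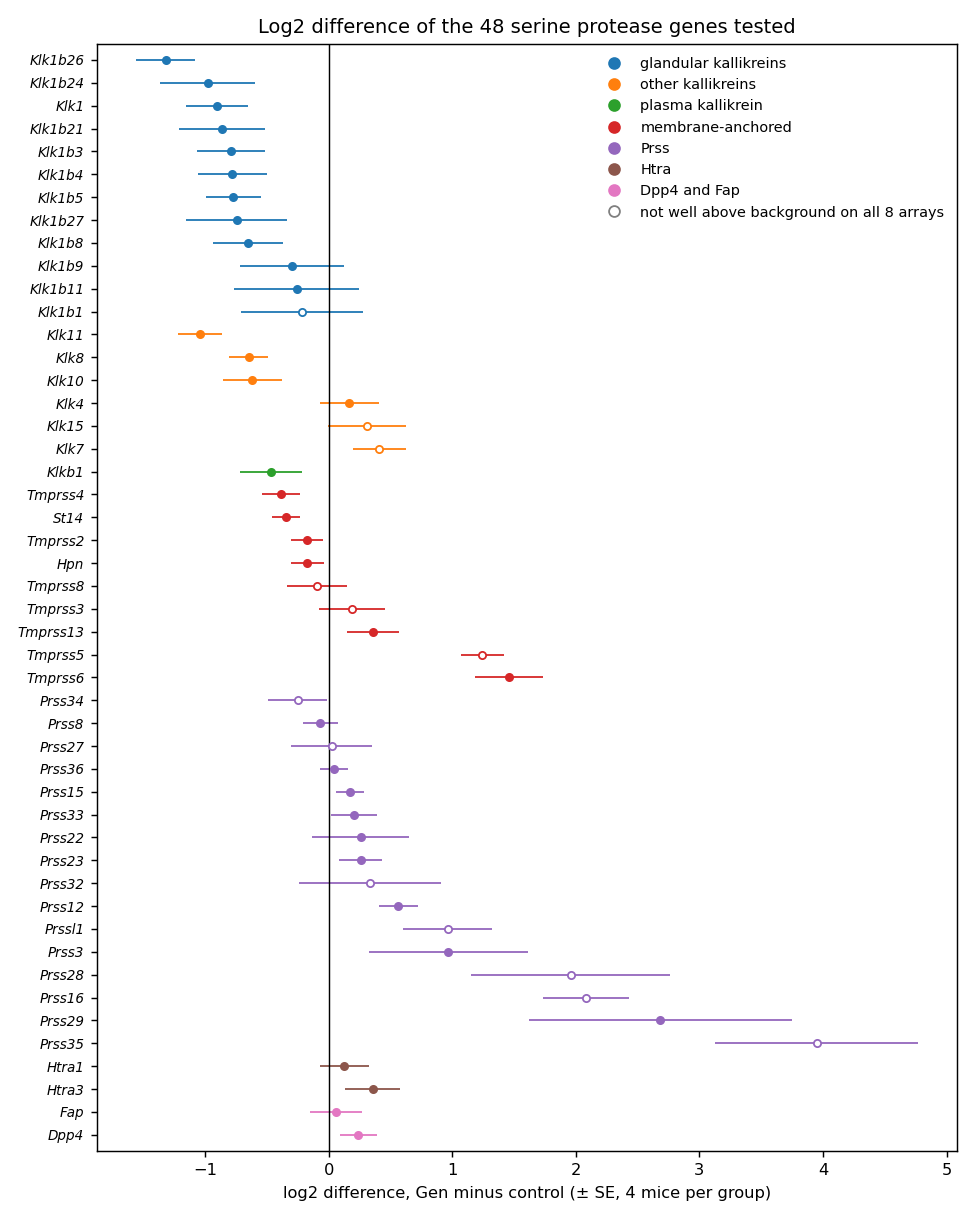
Log2 difference (Gen minus control, x axis) of each of the 48 serine protease genes tested, with SE over 4 mice per group, grouped and colored by family. Open circles mark genes not well above background on all 8 arrays. All 12 glandular kallikreins lie below 0. Prss16, Prss28, Prssl1, Tmprss5 and Klk15 were seen on no control array, so their points are fitted values and not measured differences.

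The sequences of the kallikrein probes are shown because several of these genes are near copies, and each probe was 60 bases long. In the first set capitals mark the bases that differ from the Klk1 probe where the sequences overlap, and each probe lies in the same part of its gene. The array design places these probes on the plus strand of NCBI build 35 (mm7), at chr7:40402636-40402791 for Klk1, chr7:40384768-40384923 for Klk1b4, chr7:40128083-40128142 for Klk1b8 and chr7:40189980-40190135 for Klk1b26. A span of 156 bases for a probe of 60 means that the probe is split over the genome.
Klk1: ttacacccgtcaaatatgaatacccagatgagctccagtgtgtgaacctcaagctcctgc
Klk1b4: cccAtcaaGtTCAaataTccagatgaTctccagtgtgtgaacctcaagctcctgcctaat
Klk1b8: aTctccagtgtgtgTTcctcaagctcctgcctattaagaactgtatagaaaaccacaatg
Klk1b26: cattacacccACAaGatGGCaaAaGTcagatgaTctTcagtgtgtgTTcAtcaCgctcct

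The Klk1b26 probe differed from that of Klk1 at 16 of 58 overlapping bases, the Klk1b4 probe at 7 of 55 and the Klk1b8 probe at 3 of 30. In the second set capitals mark the bases that differ from the Klk1b27 probe, at chr7:40230425-40230484 for Klk1b27, chr7:40173583-40173642 for Klk1b11 and chr7:40366158-40366217 for Klk1b24.
Klk1b27: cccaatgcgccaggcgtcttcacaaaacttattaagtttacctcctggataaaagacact
Klk1b11: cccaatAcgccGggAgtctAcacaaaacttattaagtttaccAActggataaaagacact
Klk1b24: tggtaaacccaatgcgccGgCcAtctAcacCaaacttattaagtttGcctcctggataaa

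The Klk1b11 probe differed at 6 of 60 bases and the Klk1b24 probe at 6 of 53. Among the 91 pairs of the 14 glandular kallikrein probes, 2 pairs shared a run of at least 20 bases, the longest being the 28 bases shared by Klk1 and Klk1b4. The array design lists the second Klk1 probe for Klk1b3, Klk1b9 and Klk1b11 too, the Klk1b21 probe for Klk1b11 and Klk1b24 too, and the Klk1b24 probe for Klk1b22 too. How much of each signal came from a paralog was not tested, so values of single glandular kallikreins are uncertain.

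The glandular kallikreins were Klk1, the tissue kallikrein that releases kinins from kininogen, and 12 of its near copies. All 12 of the 13 genes that could be tested had lower mean signals in Gen-treated mice, while 46.8% of all probes tested were lower. The median log2 difference was -0.77, and the range was -1.32 to -0.21. Klk1b26 passed the adjusted test, and Klk1 and Klk1b5 passed an unadjusted p of 0.01. The genes lie side by side, share sequence and were measured in the same mice, so they are not 12 independent results.

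Klk1b26 signals were 232, 227, 216 and 184 on the 4 control arrays and 55.9, 119, 73.4 and 110 on the 4 Gen arrays. All Gen arrays lay below all control arrays. The group means (back-transformed from log2) were 214 and 85.6, a log2 difference of -1.32 (SE 0.24, n = 4 per group, limma adjusted p = 0.0474). The call was lost without any 1 of the 8 mice, with adjusted p between 0.0558 and 0.116 by limma, while the difference stayed between -1.48 and -1.11.

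Klk1 signals were 1912, 2138, 2754 and 1921 in controls and 817, 1390, 900 and 1728 in Gen-treated mice. The groups did not overlap, as held for 6.46% of all probes in this direction and 7 of the 48 genes. The log2 difference was -0.90 (SE 0.25, limma adjusted p = 0.117), and the second Klk1 probe, which the design lists for 4 genes, gave -0.94. The brightest probes of the group were those of Klk1b24 and Klk1b5, although signals of different probes cannot be ranked as RNA levels. Klk1b24 signals ranged from 9460 to 10981 in controls and from 2387 to 10378 in Gen-treated mice, a log2 difference of -0.98 (SE 0.39, limma adjusted p = 0.220). Klk1b5 ranged from 8228 to 11661 and from 4230 to 8325, a log2 difference of -0.77 (SE 0.22, limma adjusted p = 0.127).

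The remaining glandular kallikreins were given by their means. Klk1b3 and Klk1b4, the gamma and alpha subunits of the nerve growth factor complex of the submaxillary gland, had log2 differences of -0.79 (SE 0.27) and -0.78 (SE 0.28). Klk1b21 was at -0.86 (SE 0.35), Klk1b27 at -0.74 (SE 0.41) and Klk1b8 at -0.65 (SE 0.28). The differences of Klk1b9, Klk1b11 and Klk1b1 were smaller than their SE, at -0.30, -0.26 and -0.21. Klk1b16 was well above background on 2 Gen arrays and no control array and was not tested.

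The spread of these genes was mostly between Gen-treated mice. The SD of log2 signal was larger in the Gen group for all 12 genes, with a median of 0.71 against 0.19 in controls. Gen 1 had the lowest signal of the 8 arrays for all 12 genes, with a median of 1.46 log2 units below the control mean. Gen 3 had a median of -1.04 and lay below all controls for 11 genes. Gen 2 had a median of 0.00 and Gen 4 of -0.22, and they lay below all controls for 5 and 7 genes. Without Gen 1, 9 of the 12 genes were lower and the median log2 difference was -0.55. Without control 2, 11 were lower, and without any 1 of the other mice all 12 were.

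**Figure D2:**
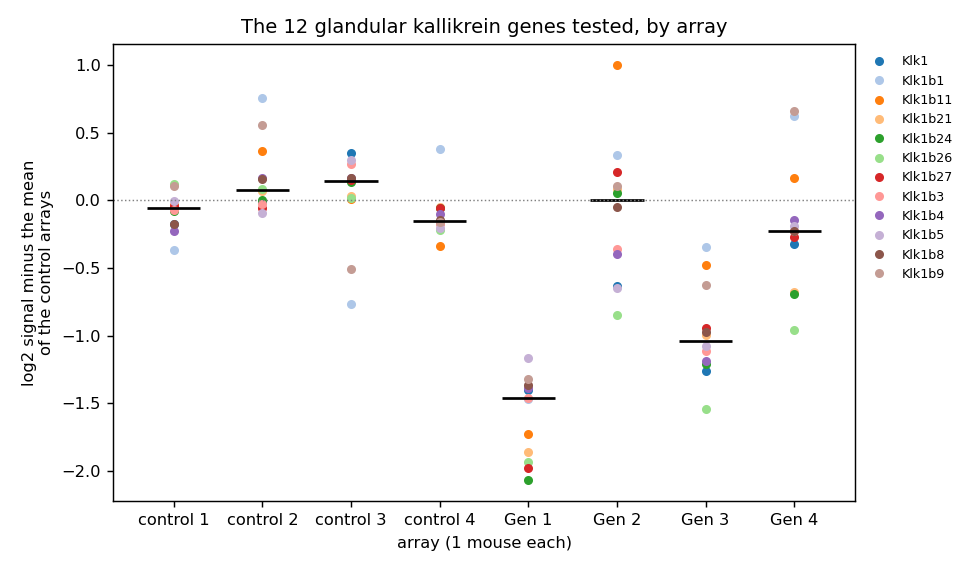
Log2 signal of the 12 glandular kallikrein genes tested on each array (x axis, 1 mouse each), as the difference from that gene's mean over the control arrays (y axis). Each point is a gene and each bar is the median over the 12 genes, which is lowest on Gen 1 (-1.46) and Gen 3 (-1.04) and near the controls on Gen 2 (0.00).

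The promoters of this block were compared because 12 of its genes lay lower together. RefSeq promoters (GRCm38.p6, 250 bases before to 50 after each annotated start) were matched for 52 of the 63 names and for all 13 glandular kallikreins. The letters TTTAAA, which read the same on both strands, occurred in the windows of 12 of the 13, against 13.2% of all 32851 promoters. The genes are near copies, so the 13 windows are not independent and no enrichment can be read from these counts. The letters lay 13 to 48 bases before the annotated start in 11 of the 12 and after the start in Klk1b21. The window of Klk1 did not hold them. The letters TATAAA (both strands) occurred in none of the 13 and in 13.6% of all promoters. The letters AGAACA, part of the glucocorticoid and androgen receptor motif, occurred in 2 of the 13, those of Klk1b3 and Klk1b24, and in 19.0% of all. The full palindrome of the estrogen response element occurred in none of the 13 and in 0.07% of all, which says only that these letters are not in these windows. A match is a description of the letters and not of a binding site.

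The 80 bases before the annotated start are printed for 4 of the genes, with TTTAAA in capitals, on the plus strand at chr7:44012598-44012677 (Klk1b26), chr7:44188156-44188235 (Klk1b24), chr7:44216394-44216473 (Klk1b5) and chr7:44198111-44198190 (Klk1b3) of GRCm38.p6. The log2 differences of these 4 genes ran from -1.32 to -0.77. Klk1b9, Klk1b11 and Klk1b1, whose windows also hold TTTAAA, were at -0.30, -0.26 and -0.21. Klk1, whose window does not hold it, was at -0.90. Each window follows the annotated start and ends 50 bases after it, so TTTAAA of Klk1 beyond the window would have been missed. A link between the letters and the differences was not tested.
Klk1b26: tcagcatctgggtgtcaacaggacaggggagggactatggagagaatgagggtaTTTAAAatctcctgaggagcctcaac
Klk1b24: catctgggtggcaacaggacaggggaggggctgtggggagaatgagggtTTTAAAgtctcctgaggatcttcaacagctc
Klk1b5: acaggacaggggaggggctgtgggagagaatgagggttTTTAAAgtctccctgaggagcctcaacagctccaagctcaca
Klk1b3: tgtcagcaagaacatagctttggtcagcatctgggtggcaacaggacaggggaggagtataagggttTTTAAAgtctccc

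Of the 11 other kallikreins of the cluster, many of them active in skin, prostate or brain, 6 were tested. Of the 4 seen on all 8 arrays Klk11, Klk10 and Klk8 were lower in Gen-treated mice, and Klk4 differed by less than its SE. Klk7 and Klk15 passed the filter only through the Gen group. Klk11, a trypsin-like kallikrein, had signals of 259, 372, 306 and 332 in controls and 191, 126, 178 and 127 in Gen-treated mice. The groups did not overlap, and Klk11 fell by 1.04 on the log2 scale, from 315 to 153 (SE 0.18, limma adjusted p = 0.0428). Klk8, neuropsin, which acts on extracellular proteins in brain and skin, had signals of 331, 352, 474 and 354 in controls. Its signals were 213, 263, 282 and 206 in Gen-treated mice, again below every control. The log2 difference of Klk8 was -0.65 (SE 0.16, limma adjusted p = 0.0886). With no filter on dim probes the limma adjusted p was 0.0319, in a fit that called 16.2% of all probes. The unadjusted p of Klk8 was no smaller there (0.00443, against 0.00295 in the main fit, both by limma).

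Klk10, which lies between Klk11 and Klk8, was at -0.62 (SE 0.24, limma adjusted p = 0.213), with overlap between the groups. Klk4, the enamel matrix protease, was at 0.17 (SE 0.24), and Klk7, a chymotrypsin-like protease of skin, at 0.41 (SE 0.21) from 1 control and 4 Gen arrays well above background. Klk15 was called above background on all 4 Gen arrays and no control array, but its lower bound was under 1-fold. Klk12 and Klk14 were seen on 1 Gen array each, and Klk5, Klk6 and Klk9 on none of the 8. Plasma kallikrein (Klkb1), which is encoded on chromosome 8 and made in the liver, was at -0.46 (SE 0.25, limma adjusted p = 0.343).

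The 3 lower genes of this set, Klk11, Klk10 and Klk8, are neighbors at the far end of the cluster from Klk1. The Klk11 probe lies at chr7:39952191-39952576 and the Klk8 probe at chr7:39977777-39977836 (mm7). Klk7, Klk4 and Klk15 lie between them and the glandular block and had positive differences, none of which passed the test. Klk7 and Klk15 were tested only through the Gen group, which favors higher values there, and Klk4 differed by less than its SE. Klk5 and Klk6, which also lie between, were seen on no array, so a change of sign along the cluster is not established. Markers of stratified squamous epithelium, where Klk5 and Klk7 are typical, did not pass the adjusted test (0 of 7 tested), and their summed signal was 5837 to 11412 in controls and 5856 to 7205 in Gen-treated mice.

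**Figure D3:**
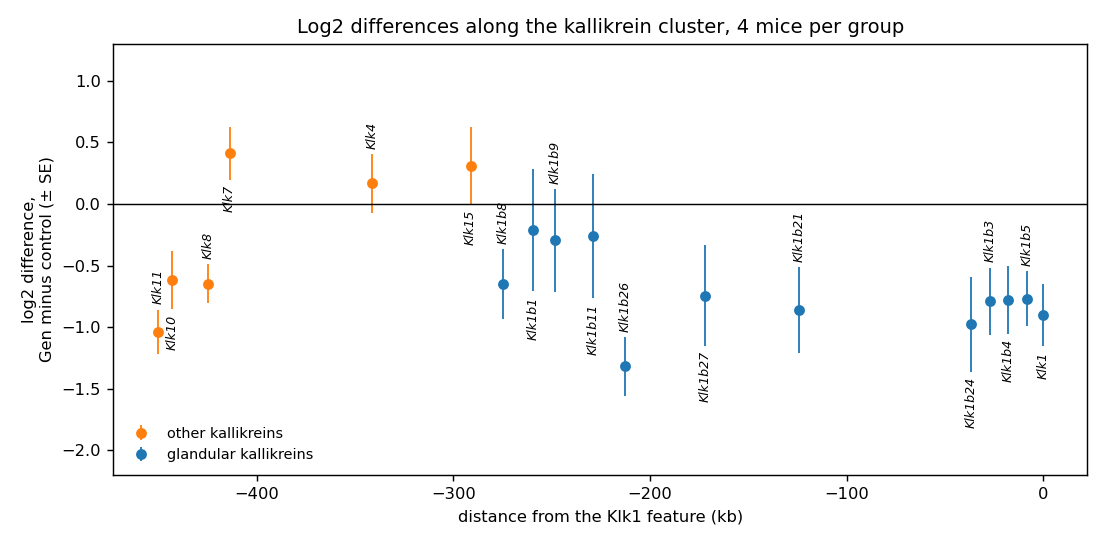
Log2 difference (Gen minus control, y axis, with SE over 4 mice per group) of the 12 glandular and 6 other kallikrein genes tested in the chromosome 7 cluster, by distance of the probe from that of Klk1 in kb (x axis). The glandular kallikreins all lie below 0, as do Klk11, Klk10 and Klk8 at the far end. Klk7, Klk4 and Klk15 between them lie above 0. Klk7 and Klk15 were tested only through the Gen group, which favors higher values there, and Klk4 differs from 0 by less than its SE.

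Among the 16 membrane-anchored proteases 9 were tested, and 1 passed the adjusted test. Tmprss5, spinesin, a protease first known from spinal cord, had signals of 16.0, 13.9, 15.8 and 17.1 in controls and 36.2, 52.7, 32.5 and 30.5 in Gen-treated mice. The software called it well above background on the 4 Gen arrays and on 0 control arrays, so a bound on the fold is given. The probe lies at chr9:49089636-49089695 (mm7, plus strand). With the main processing the lower bound for Tmprss5 was 1.80-fold, higher in Gen-treated mice (limma adjusted p = 0.0277). The bound sets the Gen mean against, for each control array, the higher of the lowest signal well above background and the signal of the probe. With normexp background correction the log2 difference of Tmprss5 was 0.07 (limma adjusted p = 0.825). With signals raised to a common floor of 34.7 it was 0.17 (limma adjusted p = 0.547). Both lie under the bound, which therefore holds only for the main processing.

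Tmprss6, matriptase-2, which restrains hepcidin in the liver, was well above background on all 8 arrays, with its probe at chr15:78522780-78522839 (mm7, minus strand). Its signals were 311, 220, 272 and 282 in controls and 467, 1159, 612 and 910 in Gen-treated mice, with no overlap. The log2 difference was 1.46 (SE 0.27, limma adjusted p = 0.0510), from a mean of 269 to one of 741. Among probes seen on all 8 arrays the adjusted p was 0.0438 by limma. With no filter on dim probes it was 0.0236 by limma, in a fit that called 16.2% of all probes. The unadjusted p of Tmprss6 was no smaller in that fit (0.000828, against 0.000578 in the main fit, both by limma). Without any 1 mouse the log2 difference lay between 1.25 and 1.68.

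St14, matriptase, which activates prostasin and growth factor precursors at epithelial surfaces, was among the 5 brightest members. Its signals were 11727, 15381, 14158 and 13238 in controls and 10215, 11204, 11653 and 9762 in Gen-treated mice. All Gen signals were below all control signals at both St14 probes, but the difference was small. The log2 difference was -0.34 (SE 0.12, limma adjusted p = 0.168), and that of the second probe was -0.48 (SE 0.13, limma adjusted p = 0.110).

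Tmprss4 also lay lower in all Gen-treated mice, with a log2 difference of -0.39 (SE 0.15, limma adjusted p = 0.221). Hepsin (Hpn), which activates hepatocyte growth factor, had a log2 difference of -0.17 (SE 0.13) and a mean signal of 7103 in controls. Tmprss2, a protease regulated by androgen in prostate, was at -0.18 (SE 0.13), and its second probe was at 0.06, so its probes did not share a sign. Tmprss13 was at 0.36 (SE 0.21), Tmprss3 at 0.19 (SE 0.26) and Tmprss8, now called Prss30, at -0.09 (SE 0.24). Corin, which converts the precursor of atrial natriuretic peptide, was seen on 3 Gen arrays and no control array and was not tested. Tmprss7 was seen on 1 Gen array. Enteropeptidase (named Prss7 on the array) and Tmprss11b, Tmprss11d, Tmprss11e and Tmprss11f were seen on none of the 8 arrays.

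**Figure D4:**
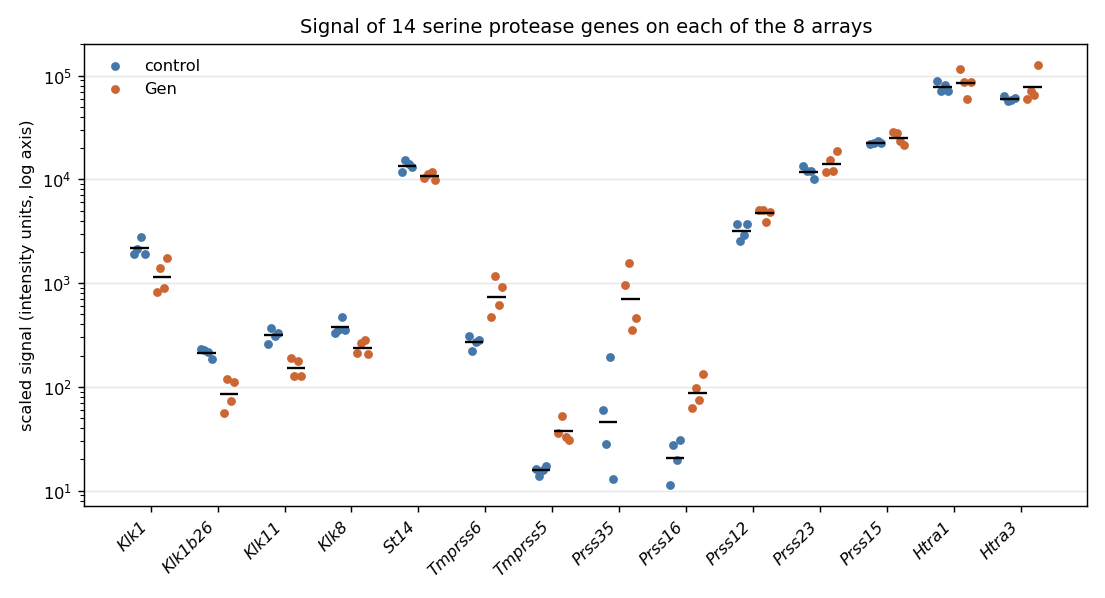
Scaled signal (intensity units, log axis) of 14 serine protease genes on the 4 control and 4 Gen arrays. Each point is 1 mouse and each bar the mean on the log2 scale. The groups do not overlap for the first 10 genes, Klk1 to Prss12, and overlap for Prss23, Prss15, Htra1 and Htra3.

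Of the 16 Prss genes tested 14 had positive log2 differences, but 7 of the 16 had passed the filter only through the Gen group, which favors higher values there. Among the 9 seen on all 8 arrays 8 were higher, with a median log2 difference of 0.26, while 49.1% of all probes seen on all 8 arrays were higher. Over the scalings, background corrections and floors tried, 11 to 15 of the 16 were higher. Prss16 passed the adjusted test, and Prss35 and Prss12 passed an unadjusted p of 0.01. The groups did not overlap for 5 of the 16, and Gen lay above control for 7 of all 48 genes and for 6.02% of all probes.

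Prss35, a secreted serine protease relative that lacks the catalytic serine, has been studied in the ovary. Its signals were 59.4, 28.4, 195 and 12.8 in controls and 959, 1551, 351 and 458 in Gen-treated mice. It was above background on all 4 Gen arrays and 2 of the control arrays, with the highest control (195) below the lowest Gen-treated mouse (351). The means were 45.3 and 699, a log2 difference of 3.95 (SE 0.82, n = 4 per group, limma adjusted p = 0.0663). With no filter on dim probes its adjusted p was 0.0236 by limma, in a fit that called 16.2% of all probes. The unadjusted p of Prss35 was no smaller there (0.0015, against 0.00115 in the main fit, both by limma). The gene was marked out beforehand from results of these arrays, so its difference is a description. The probe lies at chr9:86860536-86860595 (mm7, plus strand).

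Markers of granulosa, luteal and theca cells mostly lay higher in Gen-treated mice, as Prss35 did, while cumulus cell markers went both ways. The summed signal of 10 granulosa, luteal and theca cell markers was 6255, 5251, 29627 and 4350 in controls and 141937, 131777, 32913 and 47389 in Gen-treated mice. Control 3 was the highest control and Gen 1 and Gen 2 were the highest overall in both measures. Of 9 markers tested, 8 were higher, beside 53.2% of all probes tested. At an unadjusted p of 0.01, 5 were higher (3.99% of all probes), but none passed the adjusted test. Fshr, Lhcgr and Amh were tested only through the Gen group, which favors higher values there. Hsd3b1 was the brightest of these markers, at 900 to 18615 in controls and 21861 to 93445 in Gen-treated mice, and weighs most in the sum. No control array had Cyp19a1, Lhcgr or Amh well above background, and Cyp17a1 and Foxl2 had log2 differences of -0.02 and 0.02. The summed signal of 6 oocyte and embryo markers was 392 to 4392 in controls and 4460 to 27830 in Gen-treated mice, highest on Gen 2. That of 6 cumulus cell markers was 825 to 2054 in controls and 1126 to 1348 in Gen-treated mice. Of these cumulus markers 4 were higher and 2 lower, with a median log2 difference of 0.08. The part of any of these cells in the Prss35 signal was not tested. In bulk RNA more cells of a type and more RNA per cell cannot be told apart.

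Prss28 and Prss29, the implantation serine proteinases of the uterine glands, are neighbors on chromosome 17, with probes at chr17:23494669-23494728 and chr17:23504096-23504155 (mm7, plus strand). Prss29 signals were 532, 1402, 1266 and 920 in controls and 1608, 61177, 7968 and 1888 in Gen-treated mice. All Gen arrays lay above all controls, but Gen 2 was far above the other 3. The log2 difference was 2.68 (SE 1.06, limma adjusted p = 0.222), and without Gen 2 it was 1.58 (SE 0.60). No control array had Prss28 well above background, and its Gen signals were 30.9, 470, 61.4 and 46.7. Control 3 was at 39.3, above Gen 1, so the groups overlapped. With the main processing the lower bound for Prss28 was 3.62-fold (limma adjusted p = 0.237). This bound rested on Gen 2, without which the fitted fold was 2.15.

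Gen 2 also stood out for the trypsin Prss3 and for Prss32. Prss3 signals were 63.9 to 165 in controls and 109, 877, 140 and 138 in Gen-treated mice, a log2 difference of 0.97 (SE 0.64), which was 0.27 without Gen 2. The second Prss3 probe, which the design lists for 4 trypsin genes, was at 0.21 (SE 0.17). Prss32 signals were 33.2 to 91.6 in controls and 51.0, 273, 53.5 and 57.8 in Gen-treated mice, where the log2 difference turned from 0.34 (SE 0.57) to -0.25 without Gen 2. The pancreatic trypsin gene Prss2 was seen on 2 Gen arrays only. Of 8 exocrine pancreas markers 2, Cela2a and Pnlip, were seen on no array, and their summed signal was 858 to 1143 in controls and 1073 to 2004 in Gen-treated mice, highest on Gen 2. Their part in the Prss3 signal was not tested.

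**Figure D5:**
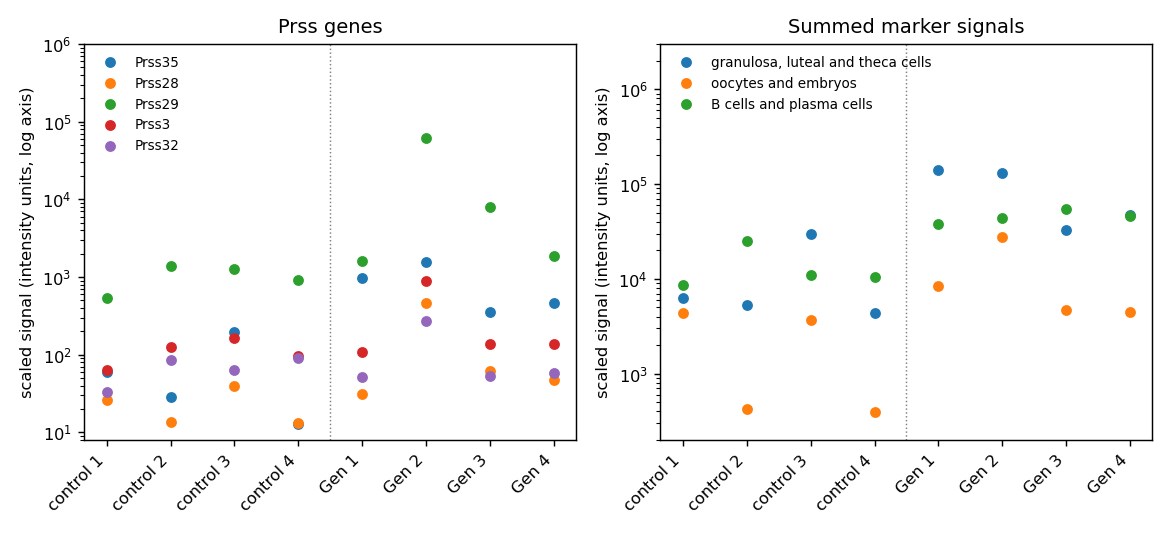
Scaled signal (intensity units, log axis) on each array (x axis, 1 mouse each) of 5 Prss genes (left) and the summed signal of markers of 3 groups of cells (right). Prss29, Prss28, Prss3 and Prss32 are highest on Gen 2, as are the oocyte and embryo markers (27830), and Prss35 and the granulosa, luteal and theca markers are higher on control 3 than on the other controls.

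Prss16, a protease of thymic epithelium that takes part in peptide presentation, had signals of 11.2, 27.5, 19.8 and 30.7 in controls and 62.3, 98.3, 74.6 and 131 in Gen-treated mice. The probe (chr13:21368489-21368548, mm7, minus strand) was well above background on the 4 Gen arrays only. With the main processing the lower bound for Prss16 was 3.11-fold, higher in Gen-treated mice (limma adjusted p = 0.0411). Its second probe was seen on none of the 8 arrays. With normexp background correction the log2 difference of Prss16 was 0.52 (limma adjusted p = 0.150), which lies under that bound. The summed signal of B cell and plasma cell markers, which lay higher in every Gen-treated mouse (37960 to 54752 against 8678 to 25013), is given beside it, and its part was not tested. One of those 7 markers, Mzb1, passed the adjusted test.

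Prss12, neurotrypsin, which cleaves agrin at synapses, was well above background on all arrays. Its signals were 3681, 2556, 2919 and 3689 in controls and 5111, 5114, 3860 and 4806 in Gen-treated mice, with no overlap. The log2 difference was 0.56 (SE 0.16, limma adjusted p = 0.117). Prssl1, now called Prss57, a neutrophil protease, was seen on no control array and all 4 Gen arrays. With the main processing its lower bound was 1.36-fold, higher in Gen-treated mice (limma adjusted p = 0.199).

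Prss23 had signals of 13409, 12062, 12004 and 10090 in controls and 11671, 15346, 11949 and 18839 in Gen-treated mice, a log2 difference of 0.26 (SE 0.17). Prss15 is the older name of Lonp1, the Lon protease of mitochondria. Its signals were 21771, 22148, 23280 and 22280 in controls and 28845, 27795, 23273 and 21621 in Gen-treated mice, a log2 difference of 0.17 (SE 0.12). Both genes overlapped between the groups.

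Prostasin (Prss8), the membrane-linked protease that St14 activates and that opens epithelial sodium channels, differed little, with a mean of 6502 in controls and a log2 difference of -0.07 (SE 0.14). Prss36 was at 0.04 (SE 0.11), Prss33 at 0.20 (SE 0.19) and Prss22 at 0.26 (SE 0.39), with Gen 1 at 623 and the other 7 arrays between 158 and 268. Prss27 was at 0.02 (SE 0.33) and Prss34, a mast cell and basophil protease, at -0.25 (SE 0.24). Testisin (Prss21) was seen on none of the 8 arrays. None of these genes passed an unadjusted p of 0.01.

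Htra1 and Htra3, secreted proteases that cut extracellular matrix proteins, gave the brightest probes of all members. Htra1 signals were 88589, 71774, 80350 and 70560 in controls and 116456, 85840, 59154 and 87021 in Gen-treated mice. The groups overlapped, and the log2 difference was 0.13 (SE 0.20, limma adjusted p = 0.746). Htra3 signals were 63288, 57257, 58066 and 61387 in controls and 59294, 71461, 65046 and 126421 in Gen-treated mice, with Gen 4 the highest. Its log2 difference was 0.36 (SE 0.22, limma adjusted p = 0.411).

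Dpp4 and Fap, membrane peptidases that cut after proline, did not pass the test. Dpp4 had a log2 difference of 0.24 (SE 0.15), and its 3 probes gave 0.24, 0.13 and -0.57, the last from the dimmest probe. Fap, a marker of activated fibroblasts, had a log2 difference of 0.06 (SE 0.21). Of the 8 genes with more than 1 probe tested, 6 had probes of the same sign, the exceptions being Dpp4 and Tmprss2.

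Genes that work with these proteases were counted on 8 lists, of inhibitors, targets, receptors and related proteases. Of the 54 genes tested 0 passed the adjusted test by limma, and at an unadjusted p of 0.01 there were 3 higher and 1 lower. Their median log2 difference was 0.05, beside 0.02 for all probes. Among targets of matriptase and hepsin, Met, the receptor for hepatocyte growth factor, had a log2 difference of 0.78 (SE 0.18, limma adjusted p = 0.0766). Scnn1a, a subunit of the epithelial sodium channel, was at 0.57 (SE 0.13, limma adjusted p = 0.0797).

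In the kinin system, Cpn1, a carboxypeptidase that inactivates kinins, was at 0.76 (SE 0.16, limma adjusted p = 0.0683) and Ace, which also degrades kinins, at 0.82 (SE 0.27, limma adjusted p = 0.161). Both lay higher in all Gen-treated mice than in all controls. Ada, adenosine deaminase, which binds Dpp4, went from 23068 to 12451, a log2 difference of -0.89 (SE 0.17, limma adjusted p = 0.0525), and Dpp3, a cytosolic peptidase, was at -0.35 (SE 0.11, limma adjusted p = 0.158). Among the Kunitz and Kazal inhibitors, Spink4 was at 0.83 (SE 0.26, limma adjusted p = 0.143), and Spink10 was seen on no control array.

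On the last 4 lists, the 2 genes with the smallest p overlapped between the groups. Htra4 was at 0.75 (SE 0.27) and Htra2, the mitochondrial member, at -0.03 (SE 0.14). The thrombin receptor F2r was at 0.31 (SE 0.23), and F2rl3 at 0.24 (SE 0.23). Nppb was seen on no control array and Nppc was at -0.46 (SE 0.22). The granule protease Gzmd was at -0.29 (SE 0.17) and Prtn3 at -0.30 (SE 0.20), while mast cell markers had a summed signal of 2522 to 5550 in controls and 1976 to 4535 in Gen-treated mice.

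Markers of the labelled tissue were bright in both groups. Of 6 markers of oviduct epithelium (Ovgp1, Pax8, Epcam, Krt8, Krt18 and Krt19), 4 were lower and 2 higher in the Gen group. The median log2 difference was -0.22, with none past the adjusted test by limma (1 lower, Krt19 at -0.47, at an unadjusted p of 0.01). Their summed signal was 1014440 to 1182070 in controls and 857791 to 1214070 in Gen-treated mice, and its part in the kallikrein signals was not tested. The probe of Ovgp1, the secreted glycoprotein of the oviduct, was saturated on 1 array. Of 7 markers of ciliated epithelium 4 were higher and 3 lower, with none past an unadjusted p of 0.01. With no filter on dim probes 16 members passed the adjusted test by limma, 5 higher and 11 lower, and 8 of the 11 were well above background on no array. Over all probes that test called 14% lower, and each of those 8 members had a lower signal on every Gen array than on any control array.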

How the data were processed

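Each array held the RNA of 1 mouse. The intensity values that the authors deposited came from Agilent Feature Extraction 9.5, per the labels. They are linear processed signals, adjusted for background and spatial trend on each array but not scaled between arrays. The deposited series table held the same intensity values in all 45018 spots of each array. The later Rosetta Resolver steps were not applied. Control and outlier spots were left out, replicate spots were averaged as log2 values, and arrays were brought to a common 75th percentile. Percentiles before scaling were 1908 to 2432 in controls and 2149 to 3772 in the Gen group.

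Groups were compared with limma 3.58.1 (lmFit and eBayes) in R 4.3.3. The fit took the 28963 probes that were well above background throughout 1 group or both, with Benjamini-Hochberg adjustment. Dim probes were left out because they shift together between the slides, which are the groups. A gene was described by its brightest probe. In simulated data with 200 of 28923 probes changed by 1, 2 or 4 log2 units, limma recovered 56.5%, 90.5% and 97.5%. False calls numbered 6, 9 and 11. The simulated noise was normal, independent between probes and of the same SD in both groups, with no slide effect. These data differ in that slide and group coincide and some genes vary together, so the shares are not the power of this design. The number of arrays limits the precision.

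Each array's value is given for Prss35, for members past an adjusted p of 0.05, for those past an unadjusted p of 0.01 without overlap, and for the 5 brightest on control arrays. Other members seen on all 8 arrays, or in 1 group only, have group values, and of each pathway list the 2 genes of smallest p are named. Members, lists and rules were chosen with earlier results of these data known. Probes were renamed by RefSeq accession (22951), by name or synonym (9768) or kept (8455). Exon and UTR annotation of the design's build was not used here. Plots were drawn with matplotlib 3.10.9. Replicate numbers were used only as names, since same-numbered arrays did not deviate together (correlations -0.18 to 0.10). Alternatives in filter, scaling, background, test and mice are given in the closing section.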

Additional observations from a re-analysis of the deposited data

Results flagged for a closer look

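In 3 of the 96 groups of 4 arrays examined (48 genes, 2 groups each), 1 array lay far from the other 3 on the log2 scale by Dixon's test, which divides the gap to the nearest array by the whole range of the group. About 1 group in 20 does so by chance, and none of the 3 was a gene past the adjusted test. For Klk1b27, control 3 had a signal of 2451, and the other controls lay between 2121 and 2149, a gap of 0.910 of the range. For Prss3, Gen 2 had 877 and the other Gen-treated mice 109 to 140, a gap of 0.882. For Prss32, Gen 2 had 273 and the other Gen-treated mice 51.0 to 57.8, a gap of 0.925.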

How the results depend on the processing

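The number of members past an adjusted p of 0.05 was 4. The share of all probes past it was 1.1%. The number was 16 with no filter on dim probes (16.2% of all probes), 8 with no scaling between arrays (4.56%), 2 with signals raised to a floor of 34.7 (0.984%), 0 with the methods' t-test (with 7 at its unadjusted p of 0.01) and 0 with the replicate number as a block. It lay between 3 and 6 under the other alternatives with all 8 arrays, and between 0 and 3 with 1 mouse left out. The number past an unadjusted p of 0.01 was 10, was 18 with no filter, and lay between 6 (without Gen 1) and 11 with 1 mouse left out. With the replicate block 7 members passed an unadjusted p of 0.01 by limma. The numbers did not pair the mice, since no control array deviated most like the Gen array of its own number. The cause of each change was not tested, except that fewer mice leave fewer degrees of freedom.

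The log2 difference of Prss35 kept its direction throughout. It passed the adjusted test with no filter (3.95), with no scaling (4.19), with normexp background correction (2.57) and with an intensity trend in a robust fit (3.95), and it lay between 3.34 and 4.65 with 1 mouse left out. Of 14 members with values on every array, 13 kept their direction under all settings, and Htra1 turned to -0.025 without Gen 1, in a range up to 0.30 with 1 mouse left out. With no scaling the median of all probes moved from 0.02 to 0.26, 11 of 12 glandular kallikreins were lower and 15 of 16 Prss genes were higher. Those 2 counts were added after the data were seen, and under the other settings with all 8 arrays every glandular kallikrein tested was lower. Prss35 could not be tested among probes seen on all 8 arrays. Tmprss5 and Prss16 were not well above background on any control array, and their calls were lost with normexp.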
